A study of Mus musculus with 2 samples.

Results

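The genes described here encode the enzymes that oxidise 5-methylcytosine (5mC) and the base excision repair proteins that take out the oxidised or deaminated bases. The set holds 10 genes of the 28839 in the deposited expression table, namely Tet1, Tet2, Tet3, Tdg, Ung, Smug1, Mbd4, Apex1, Polb and Xrcc1, picked by gene symbol for the known roles of the proteins, with no measured value in the rule. All 10 symbols were found, each in 1 row. RNA of mouse embryonic stem cells (mESCs) of the line Sv129 was sequenced after culture with no folate in the medium (FA0, 0 mg/L) or with folate added to 4 mg/L (FA4), with 1 library per condition. Both groups came from the same resuscitated cells, split at random, and both grew in DMEM with fetal bovine serum and mouse leukemia inhibitory factor, so FA0 and FA4 differed by the folate added. Sv129 is a single line from 1 cell bank. The length of the culture without folate and whether the serum still carried folate were not stated in the labels or methods. With 1 library in each group, the differences below were not tested and carry no p-value, and an effect of folate cannot be told apart from a difference between 2 cultures or 2 libraries.

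TET enzymes are dioxygenases that use iron and alpha-ketoglutarate to turn 5mC into 5-hydroxymethylcytosine (5hmC) and then into formylcytosine and carboxylcytosine. Base excision repair can finish demethylation, since a glycosylase cuts out the altered base, an endonuclease opens the strand at the empty (AP) site, and a polymerase and ligase put back an unmodified cytosine. The same pathway removes uracil from DNA, and folate is the source of the methyl group with which thymidylate synthase makes dTMP from dUMP.

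The sequences shown first are the RT-qPCR primers that the study used for the TET genes and Tdg, because they set which transcripts such an assay reads. Each pair is given with its forward primer before its reverse primer, 5′ to 3′.
Tet1 forward: atttccgcatctgggaacctg
Tet1 reverse: ggaagttgatctttggggcaat
Tet2 forward: aagcagccgtcagccaaat
Tet2 reverse: ttccgtgttgggaaagcatct
Tet3 forward: tgcgattgtgtcgaacaaatagt
Tet3 reverse: tccataccgatcctccatgag
Tdg forward: agccacgaatagcggtgttta
Tdg reverse: ggttgaagcccaaattccaagt
In the GENCODE M21 transcripts, the Tet1 pair spans 144 bases and was found in 2 of 10 annotated transcripts of the gene. The Tet2 pair spans 102 bases and was found in 2 of 10 transcripts, and the Tet3 pair spans 111 bases and was found in 2 of 5. None of these 3 pairs was found together in another gene. The Tdg pair was found in 5 of 11 Tdg transcripts and also in 3 other genes, all of them Tdg pseudogenes. The product of 100 bases between the Tdg primers is shown because it was the same, base for base, in the longest Tdg transcript and in the pseudogenes Gm9855, Tdg-ps and Gm5597.
Tdg product: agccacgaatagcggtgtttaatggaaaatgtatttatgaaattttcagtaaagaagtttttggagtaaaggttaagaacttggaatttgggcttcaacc
An assay with these primers therefore cannot tell the products of these 4 genes apart. The Tdg values given further on come from sequencing and not from this assay, but the near-identical copies bear on them as well.

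Of the 10 genes, none was 2-fold or more apart between FA0 and FA4. The change of a gene was the log2 value of FPKM plus 1 in FA0 minus that in FA4, where FPKM is the number of fragments per kilobase of exon and per unit of sequencing depth, and it ran from -0.39 for Tet2 to 0.52 for Smug1. In all, 14345 genes reached an FPKM of 1 in FA0 or FA4 and were compared. Of these, 2.99% were 2-fold or more higher in FA0 and 1.32% were lower by as much, so a count of 0 among 10 genes is near the background. The median change of the 10 genes was -0.00083, beside 0.05 over all 14345 genes. Their median size of change, regardless of direction, was 0.17, beside 0.24 over all genes and 0.22 over the 9633 genes in the same range of mean FPKM (1.92 to 31.5).

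Smaller differences were set against the counting error. The number of reads behind each FPKM was worked out from the exon length, and a 95% Clopper-Pearson interval was taken for the ratio of FA0 to FA4. This interval covers counting error only and not the spread between cultures. Tet3, Ung, Smug1 and Xrcc1 had an interval above equal levels, Tet2 and Apex1 had an interval below, and the intervals of Tet1, Tdg, Mbd4 and Polb included equal levels. At this depth 34.4% of all genes had an interval above equal levels and 25.9% had one below, or 37% and 23.7% of the genes in the same range of FPKM. The counts of 4 and 2 among 10 genes lie near these shares and are no result about the set.

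**Figure D1:**
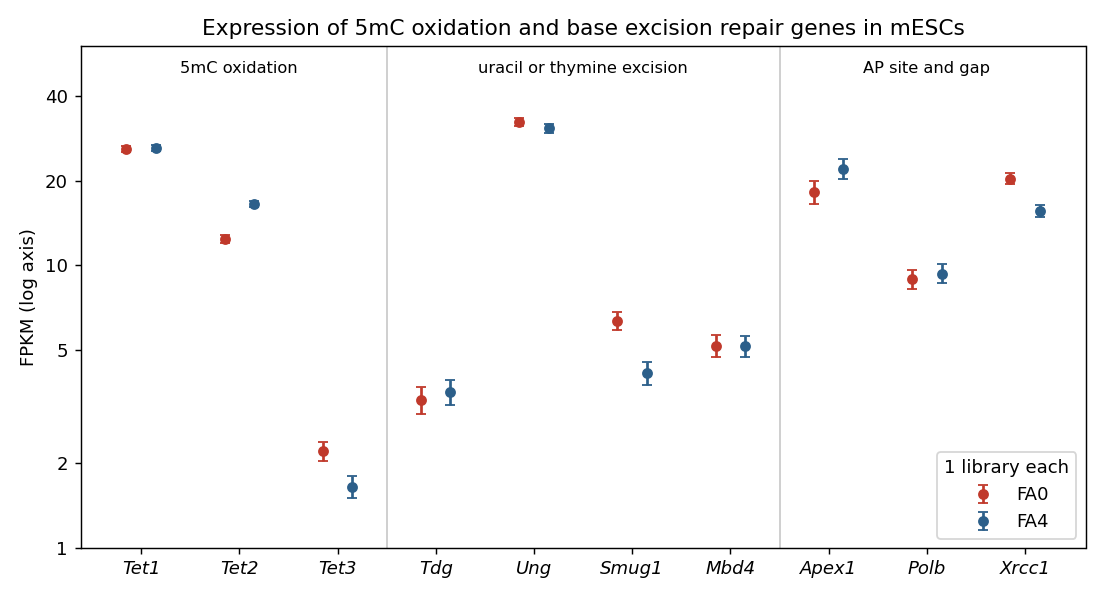
FPKM (log axis) of the 10 genes in the FA0 library (left point of each pair) and the FA4 library (right point), grouped by step, with bars for the 95% Poisson interval of the recovered reads. Tet2 is the gene with the lowest ratio (12.4 in FA0 and 16.5 in FA4) and Smug1 the one with the highest (6.36 in FA0 and 4.15 in FA4).

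Among the oxidising enzymes, Tet2 was lower and Tet3 higher in FA0, while Tet1, the highest of the 3 by FPKM, was close to equal. Tet1 (ENSMUSG00000047146, chromosome 10 from 62804570 to 62908996 in mm10, minus strand), which binds CpG-rich DNA through its CXXC domain, had an FPKM of 25.9 in FA0 and 26.1 in FA4. Its ratio was 0.995 (95% counting interval 0.963 to 1.03), from 7096 and 7575 reads in FA0 and FA4. After conversion to TPM the change of Tet1 was 0.07, against -0.01 with the deposited FPKM, so its direction depended on the scaling.

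Tet2 (ENSMUSG00000040943, chromosome 3 from 133463679 to 133545139, minus strand), a TET enzyme with no CXXC domain of its own, had an FPKM of 12.4 in FA0 and 16.5 in FA4. Its ratio was 0.751 (95% counting interval 0.720 to 0.784), 1.33-fold lower in FA0, with 3702 reads in FA0 and 5234 in FA4. Differences of this size were common in these libraries, as 29.1% of the 14345 genes had a change at least as large in either direction.

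Tet3 (ENSMUSG00000034832, chromosome 6 from 83362373 to 83459084, minus strand), known for oxidising the paternal genome of the zygote, was the lowest of the 10 genes in both libraries, with an FPKM of 2.20 in FA0 and 1.64 in FA4. Its ratio was 1.34 (95% counting interval 1.19 to 1.51), from 649 reads in FA0 and 515 in FA4. The change of Tet3 was 0.28, and 43.4% of all genes had a change at least as large in either direction. The 1000 genes nearest to Tet3 in level had a median change of 0.12, a value added after seeing the data.

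The makeup of the TET transcripts thus differed between the libraries. Tet1 held 64.0% of the summed FPKM of the 3 genes in FA0 and 59.0% in FA4. The share of Tet2 was 30.6% in FA0 and 37.3% in FA4, and that of Tet3 was 5.42% in FA0 and 3.71% in FA4. The sum itself was 40.5 FPKM in FA0 and 44.2 FPKM in FA4, a ratio of 0.917. A ratio between 2 genes of the same library does not depend on how the libraries were scaled. On this measure there were 0.478 Tet2 per Tet1 in FA0 and 0.633 in FA4, a quotient of 0.755 (95% counting interval 0.716 to 0.797). Tet3 per Tet1 was 0.0847 in FA0 and 0.0629 in FA4, a quotient of 1.35 (1.19 to 1.52). Tet2 was the lower of the pair and Tet3 the higher, relative to Tet1, by more than counting error. Levels between the 3 genes also depend on length, here merged exons of 15457 bases for Tet1, 16870 for Tet2 and 16695 for Tet3. The longest transcripts holding the primer pairs had 14369, 9179 and 10904 bases. The shares and the order of the 3 genes by abundance are thus uncertain. The quotients of FA0 over FA4 use the same length in both libraries.

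Of the glycosylases, Smug1 was higher in FA0, Ung slightly so, and Mbd4 and Tdg did not differ beyond counting error. Ung (ENSMUSG00000029591, chromosome 5 from 114130386 to 114139323, plus strand), the main uracil-DNA glycosylase, was the highest of the 10 genes in both libraries, with an FPKM of 32.3 in FA0 and 30.6 in FA4. Its ratio of 1.05 had a 95% counting interval of 1.003 to 1.11, which only just excludes equal levels, and 82.6% of all genes had a change at least as large.

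Smug1 (ENSMUSG00000036061, chromosome 15 from 103153290 to 103167092, minus strand), which removes uracil and 5-hydroxymethyluracil, had an FPKM of 6.36 in FA0 and 4.15 in FA4. Its ratio of 1.53 (95% counting interval 1.36 to 1.73), from 692 reads in FA0 and 479 in FA4, was the highest of the 10 genes, and 18.5% of all genes had a change at least as large in either direction. Measured against Ung in the same library, Smug1 stood at 0.197 in FA0 and 0.135 in FA4, a quotient of 1.46 (95% counting interval 1.28 to 1.66).

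Mbd4 (ENSMUSG00000030322, chromosome 6 from 115840697 to 115853371, minus strand) carries a methyl-CpG-binding domain beside a glycosylase domain that removes thymine or uracil opposite guanine. Its FPKM was 5.19 in FA0 and 5.17 in FA4, a ratio of 1.004 (95% counting interval 0.885 to 1.14). A difference of Mbd4 inside this interval was not detectable at this depth.

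Tdg (ENSMUSG00000034674, chromosome 10 from 82629828 to 82650799, plus strand) is the glycosylase that removes formylcytosine and carboxylcytosine, and thymine from mismatches with guanine. Its FPKM was 3.33 in FA0 and 3.55 in FA4, a ratio of 0.938 (95% counting interval 0.804 to 1.09), from 317 reads in FA0 and 359 in FA4. The table also lists Gm9855, a processed pseudogene of Tdg (ENSMUSG00000085666, chromosome 10 from 42054113 to 42055306, minus strand), with an FPKM of 27.6 in FA0 and 31.2 in FA4. This is 8.28 times the FPKM of Tdg in FA0 and 8.78 times in FA4, on the scale of FPKM.

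Gm9855 was identical to the longest Tdg transcript at 1185 of 1194 aligned bases (99.25%), Tdg-ps at 2929 of 2968 (98.69%) and Gm5597 at 1185 of 1193 (99.33%). Reads from such stretches cannot be assigned with certainty, and the handling of multi-mapped reads was not stated. Of the reads assigned to the 4 genes, Gm9855 held 63.6% in FA0 and 65.9% in FA4, and Tdg itself 34.6% in FA0 and 33.8% in FA4. Tdg-ps had 13 reads in FA0 and 4 in FA4, and Gm5597 had 3 reads in FA0 and 0 in FA4, so both added little.

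With the reads of Tdg and Gm9855 added together, there were 900 in FA0 and 1059 in FA4, and the ratio was 0.903 (95% counting interval 0.825 to 0.988), which excludes equal levels where that of Tdg alone did not. With all 3 pseudogenes added, the reads were 916 in FA0 and 1063 in FA4 and the ratio was 0.915 (0.837 to 1.001), which includes equal levels. Tdg alone and both sums gave a ratio below 1, with intervals that overlap, and only the upper edge of the interval moved across equal levels. Most reads in both sums were assigned to Gm9855, so the sums do not measure Tdg by itself. If a read was listed under more than 1 of these genes, the sums count it again and their intervals are too narrow. How reads are shared among the near-identical copies is not known, so the ratio of Tdg itself stays uncertain. The level of Tdg relative to the other glycosylases is uncertain for the same reason.

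**Figure D2:**
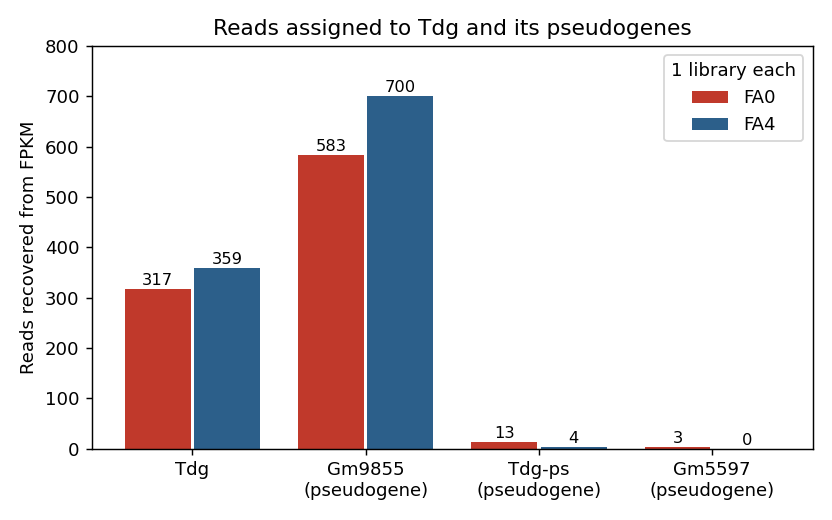
Reads recovered from FPKM for Tdg and its 3 pseudogenes, with FA0 as the left bar and FA4 as the right bar of each pair, 1 library each, and the read number above each bar. Gm9855 took 583 reads in FA0 and 700 in FA4, more than Tdg with 317 in FA0 and 359 in FA4.

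In the summed FPKM of the 4 glycosylases, 47.2 in FA0 and 43.5 in FA4, Ung held 68.4% in FA0 and 70.4% in FA4. Smug1 held 13.5% in FA0 and 9.54% in FA4, Mbd4 11.0% in FA0 and 11.9% in FA4, and Tdg as listed 7.06% in FA0 and 8.17% in FA4. Of the 4, Smug1 had the share that differed by the largest factor. Tdg per Ung had a quotient of 0.890 (95% counting interval 0.756 to 1.05) and Mbd4 per Ung of 0.953 (0.832 to 1.09), both within counting error of 1.

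After excision, Xrcc1 was higher and Apex1 lower in FA0, and Polb did not differ beyond counting error. Apex1 (ENSMUSG00000035960, chromosome 14 from 50924968 to 50927139, plus strand), the main AP endonuclease, had an FPKM of 18.2 in FA0 and 22.1 in FA4. It was 1.22-fold lower in FA0 (95% counting interval 1.07 to 1.38), from 457 reads in FA0 and 590 in FA4. A change at least as large as that of Apex1 was seen in 44.6% of all genes. Of its exon bases, 877 (61.7%) also lie in exons of Pip4p1 on the opposite strand, a gene listed under its older symbol Tmem55b at 7.95 FPKM in FA0 and 11.2 FPKM in FA4. Whether strand was used in counting was not stated, so the reads of the 2 genes cannot be told apart there.

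Polb (ENSMUSG00000031536, chromosome 8 from 22628126 to 22653435, minus strand), the polymerase that fills the gap of a single nucleotide, had an FPKM of 8.95 in FA0 and 9.37 in FA4. Its ratio was 0.955 (95% counting interval 0.856 to 1.07). Xrcc1 (ENSMUSG00000051768, chromosome 7 from 24546289 to 24573440, plus strand), the scaffold that holds polymerase beta and DNA ligase III at the break, had an FPKM of 20.3 in FA0 and 15.6 in FA4. Its ratio was 1.30 (95% counting interval 1.22 to 1.39), from 2097 reads in FA0 and 1713 in FA4, and 32.2% of all genes had a change at least as large in either direction. The other exon overlaps of the 10 genes, all with genes on the opposite strand, covered 6.83% of the exon bases of Tdg, 5% of Mbd4, 1.14% of Polb and 0.255% of Tet2.

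The summed FPKM of Apex1, Polb and Xrcc1 was 47.4 in FA0 and 47.0 in FA4, a ratio of 1.01, although its makeup differed. Xrcc1 held 42.8% of it in FA0 and 33.2% in FA4, and Apex1 held 38.3% in FA0 and 46.9% in FA4. Xrcc1 per Apex1 was 1.12 in FA0 and 0.708 in FA4, a quotient of 1.58 (95% counting interval 1.37 to 1.82). The order of this pair by FPKM was thus turned between the libraries, with the limit on Apex1 given above.

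**Figure D3:**
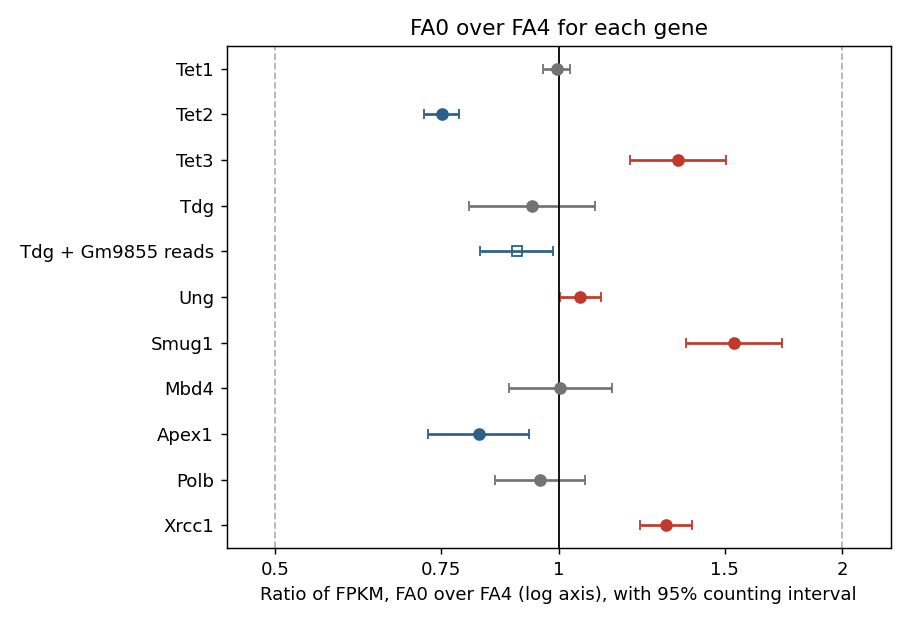
Ratio of FPKM in FA0 over FA4 (log axis) for each gene with its 95% counting interval, and for the summed reads of Tdg and Gm9855 as an open square. Red marks an interval above 1, blue an interval below 1 and grey an interval that includes 1, and no gene reaches the dashed lines at 0.5 and 2.

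By FPKM, the 10 genes fell in the same broad order in both libraries, with Ung and Tet1 at the top and Tdg and Tet3 at the bottom. In FA0 the order was Ung, Tet1, Xrcc1, Apex1, Tet2, Polb, Smug1, Mbd4, Tdg and Tet3, and the closest neighbours were Xrcc1 and Apex1, with a ratio of 1.12 (95% counting interval 1.01 to 1.24). In FA4 it was Ung, Tet1, Apex1, Tet2, Xrcc1, Polb, Mbd4, Smug1, Tdg and Tet3. There Tet2 over Xrcc1 was 1.06 (0.9998 to 1.12), the only neighbours of either library whose ratio did not differ from 1 beyond counting error, and Smug1 over Tdg was 1.17 (1.02 to 1.34). The separate intervals of these 3 pairs overlap in the plot of FPKM. Altogether 5 genes held another rank in FA0 than in FA4, namely Tet2, Smug1, Mbd4, Apex1 and Xrcc1. All these ranks rest on merged exon lengths, and the intervals do not cover an error of length. For Tdg, the merged exons had 5374 bases and the longest protein-coding transcript had 3502.

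**Figure D4:**
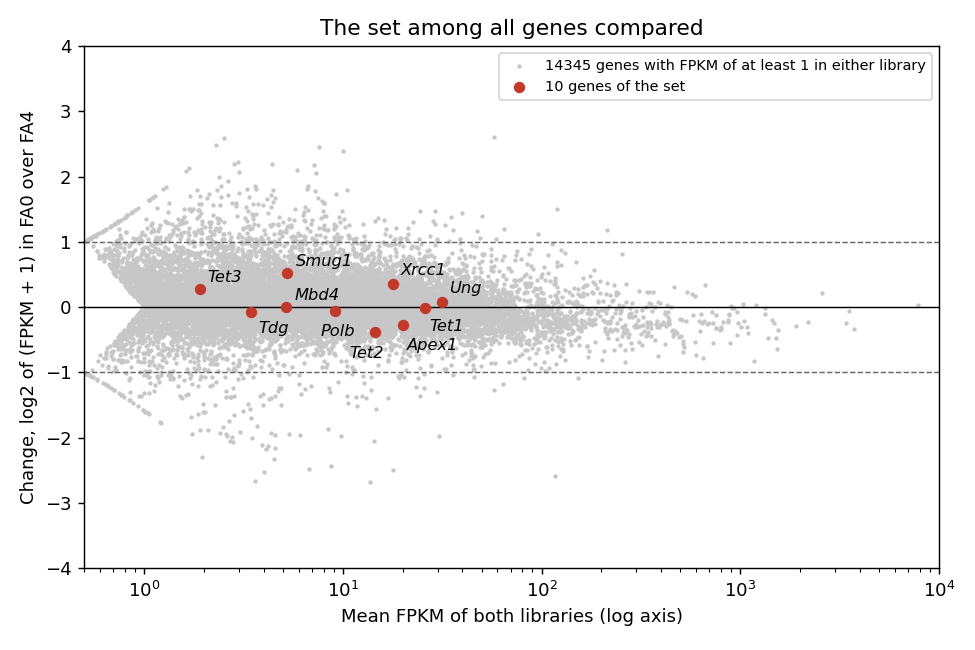
Change (log2 of FPKM + 1 in FA0 over FA4) against mean FPKM (log axis) for the 14345 genes compared (grey) and the 10 genes of the set (red), with dashed lines at 2-fold. The 10 genes lie between -0.39 and 0.52, inside the cloud of all genes, and 1 gene lies beyond the axis.

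Other DNA repair genes of the same pathway differed in both directions as well. Of 29 further base excision repair genes, all of them above this minimum, 8 had a counting interval above equal levels in FA0 and 13 one below, and none was 2-fold apart, beside 34.4% above and 25.9% below over all genes compared. Their median change was -0.07, beside 0.05 over all genes. Among the other glycosylases, Mutyh, which removes adenine opposite 8-oxoguanine, had an FPKM of 6.85 in FA0 and 10.8 in FA4, a ratio of 0.632 (95% counting interval 0.548 to 0.727). Neil1, which acts on oxidised pyrimidines, had a ratio of 0.721 (0.591 to 0.878), and Neil3 of the same family one of 1.30 (1.11 to 1.53).

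In the later steps, Parp1, the sensor of strand breaks that recruits Xrcc1, had an FPKM of 119 in FA0 and 83.3 in FA4, a ratio of 1.43 (95% counting interval 1.39 to 1.47). Pold2, a subunit of DNA polymerase delta, had a ratio of 0.739 (0.691 to 0.791), Aptx, which clears abortive ligation ends, one of 0.684 (0.574 to 0.814), and Tdp1, which removes blocked 3′ ends, one of 0.782 (0.720 to 0.849). Xrcc1 and Parp1 were both higher in FA0, as 7 of the 22 genes of the later steps were by their interval, while 11 had an interval below equal levels (34.4% and 25.9% of all genes).

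Cytosine deaminases can supply uracil or thymine for the glycosylases. Apobec2, which belongs to this family by sequence, had an FPKM of 12.7 in FA0 and 5.72 in FA4. Its ratio was 2.21 (95% counting interval 1.84 to 2.67), a change of 1.02. It was the only gene among the listed neighbours of the set at least 2-fold higher. Over all genes compared, 2.99% were higher by as much, so 1 such gene among the neighbour lists is near the background. Apobec1, which edits RNA in the gut, had a ratio of 1.23 (1.10 to 1.38), and Apobec3 one of 0.846 (0.787 to 0.908).

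Of the 9 genes that set the supply of dUTP and dTTP, 4 had an interval above equal levels and 3 one below, beside 34.4% and 25.9% of all genes. Tyms, the thymidylate synthase that uses folate, had an FPKM of 17.4 in FA0 and 23.9 in FA4, a ratio of 0.728 (95% counting interval 0.686 to 0.772). Dck, deoxycytidine kinase, had a ratio of 1.40 (1.27 to 1.53), and Tk1, thymidine kinase, one of 1.36 (1.26 to 1.47). The salvage kinases were thus higher and the folate-dependent synthase lower in FA0, each by less than 2-fold.

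TET enzymes need alpha-ketoglutarate, and the 19 compared genes of its supply and of TET partners had a median change of 0.13, with 10 intervals above and 7 below equal levels, beside a median of 0.05 and shares of 34.4% and 25.9% over all genes. Idh1, the cytosolic enzyme that makes alpha-ketoglutarate, had an FPKM of 45.0 in FA0 and 30.0 in FA4, a ratio of 1.50 (95% counting interval 1.41 to 1.60). Ogdh, part of the complex that consumes it in mitochondria, had an FPKM of 21.2 in FA0 and 32.4 in FA4, a ratio of 0.656 (0.621 to 0.693). Slc23a2, an ascorbate transporter, had a ratio of 1.45 (1.37 to 1.55), and Gadd45a, which binds TDG, one of 0.671 (0.625 to 0.720). Alpha-ketoglutarate itself was not measured in these data.

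Proteins that read AP sites or oxidised cytosine were also split, with 3 of 5 intervals above and 2 below equal levels (34.4% and 25.9% of all genes). Wdr76 had a ratio of 1.31 (95% counting interval 1.22 to 1.41), Hmces, which shields AP sites in single-stranded DNA, one of 1.21 (1.13 to 1.30), Uhrf2, a reader of 5hmC, one of 0.812 (0.764 to 0.864), and Thyn1 one of 0.858 (0.799 to 0.920).

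On the side of methylation, Uhrf1, which brings Dnmt1 to newly copied DNA, had an FPKM of 137 in FA0 and 78.6 in FA4, a ratio of 1.74 (95% counting interval 1.69 to 1.80). Dnmt3b, a de novo methyltransferase, had an FPKM of 24.5 in FA0 and 15.0 in FA4, a ratio of 1.63 (1.53 to 1.74). Dnmt1 had a ratio of 1.10 (1.06 to 1.14) and Dnmt3a one of 0.881 (0.815 to 0.953). Neither Uhrf1 nor Dnmt3b was 2-fold apart, yet both ratios were above those of all 10 genes of the set.

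**Figure D5:**
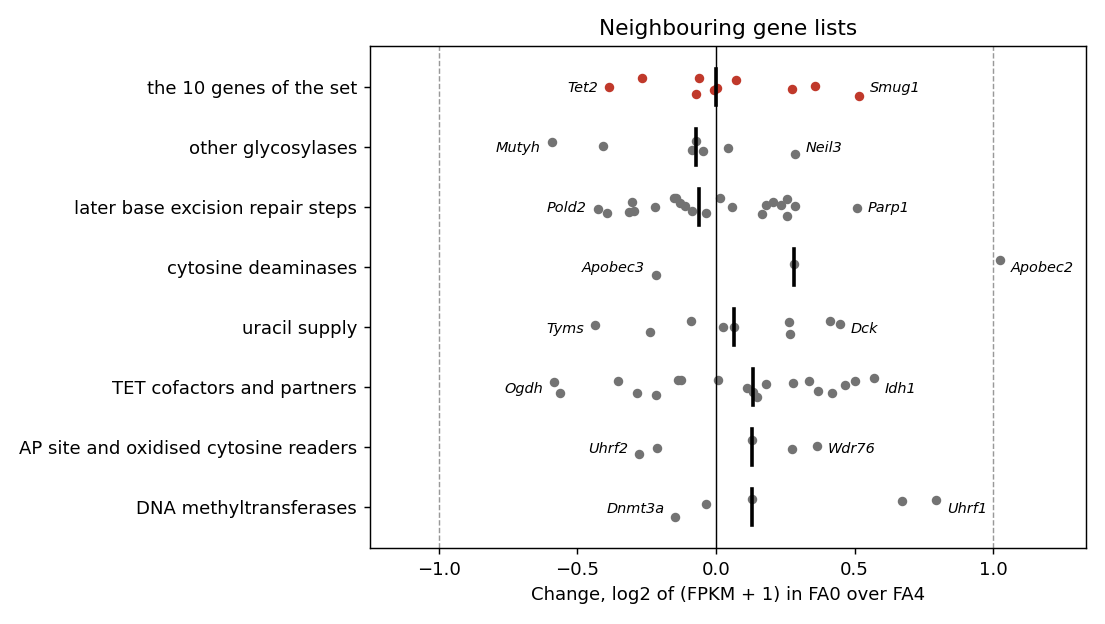
Change (log2 of FPKM + 1 in FA0 over FA4) of each compared gene, 1 point per gene, for the 10 genes of the set (red, top) and 7 lists of neighbouring genes (grey), with black bars at the medians and names at the lowest and highest gene. The set spans -0.39 to 0.52 and Apobec2 alone passes the dashed line at 1.

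Summed over the genes, there were 18367795 recovered reads in FA0 and 19534460 in FA4. The totals fitted to the scaling of FPKM were lower, 17704763 in FA0 and 18807032 in FA4. The libraries were thus of similar depth, and mitochondrial genes took 2.35% of the summed reads in FA0 and 2.38% in FA4. All 8 markers of mouse embryonic stem cells (Pou5f1, Sox2, Nanog, Zfp42, Esrrb, Klf4, Dppa5a and Tdgf1) were present, the lowest at 108 FPKM in FA0 and 135 FPKM in FA4. Every one of these 8 had a counting interval below equal levels in FA0, as 25.9% of all genes had, and their summed FPKM was 4179 in FA0 and 5255 in FA4. Of 7 fibroblast markers, whose summed FPKM was 6.80 in FA0 and 6.48 in FA4, 3 were listed at 0 in FA4 (Col3a1, Lum and Postn) and none was listed at 0 in FA0. The values in FA0 rested on 1 read for Col3a1, 1 for Lum and 9 for Postn. Most of the summed FPKM was Thy1, at 4.53 in FA0 and 4.21 in FA4. The 6 primitive endoderm markers summed to 3.87 FPKM in FA0 and 6.99 FPKM in FA4, with none at 0. Of these, 3 reached an FPKM of 1 in either library, and all 3 had an interval below equal levels. The share over all genes compared was 25.9%. Mesoderm markers summed to 4.18 FPKM in FA0 and 3.03 FPKM in FA4, most of it Eomes, at 3.21 in FA0 and 1.95 in FA4. By value, Eomes and Mixl1 were higher and T and Mesp1 lower in FA0. Neural markers summed to 41.8 FPKM in FA0 and 44.6 FPKM in FA4, nearly all of it Tubb3. The part of the state or makeup of the cells in the differences of the 10 genes was not tested. In bulk RNA, fewer cells of a type and less RNA per cell cannot be told apart.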

How the data were processed

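RNA of FA0 and FA4 mESCs (1 library each) was extracted with TRIzol and built into libraries with the NEBNext Ultra kit. The authors deposited FPKM per Ensembl gene on mm10. HISAT2 2.1.0, StringTie 1.3.3b and DESeq 1.28.0 are listed in the submitters' processing notes, and Tophat and limma appear in the paper's methods. Strand and multi-mapped reads are not described in the sources used here, and FPKM were not rescaled between libraries.

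Reads were recovered from FPKM and the merged exon length in GENCODE M21. Of values up to 20 reads, 98.1% in FA0 and 97.9% in FA4 fell within 0.05 of a whole number, and 39 genes had no length. No count test was run, since each group has 1 library. A pseudocount of 1 was added to FPKM, and genes with an FPKM of 1 or more in FA0 or FA4 were compared. The pseudocount understates the change of low genes, so ratios are given without it. Quotients of 2 genes have conditional exact intervals. Read recovery and intervals were tested on simulated data. Other pseudocounts, minimums and scalings were tried.

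The 10 genes and the gene lists were chosen with earlier results of these data known. All 10 genes were named, and from each list every gene at least 2-fold apart and up to 4 with the largest change among those whose interval excludes equal levels. The Tdg pseudogenes, Pip4p1, Idh2, Idh3a, Idh3b, Idh3g and the ratios of neighbours in the order of levels were added after values were seen. Some genes of the lists are not reported here. Calculations were done in Python 3.11.15 (scipy 1.17.1, numpy 2.4.6, pandas 2.3.3).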

Additional observations from a re-analysis of the deposited data

How the results depend on the processing

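Pseudocounts of 0.1, 0.5 or none, no FPKM minimum or one of 5, division of FA0 by the median ratio over 7744 genes (0.994) and conversion to TPM left all 10 genes within 2-fold. Their highest change ran from 0.52 to 0.66 and their lowest from -0.41 to -0.32. TPM shifted the median of all genes to 0.15, against 0.05 as deposited, and moved Tet1 to 0.07, Ung to 0.16, Xrcc1 to 0.45 and Tet2 to -0.32, so that 5 genes had an interval above equal levels and 2 below. The signs of Tet1 and Polb, positive in TPM, thus depend on scaling. The minimum of 5 removed Tet3 and Tdg. Counted as reads without division by length, Tet1 held 62.0% of the TET total in FA0 and 56.9% in FA4. Added after seeing the data, leaving out Tdg and Apex1 left 1 gene with an interval below equal levels, since Apex1 was 1 of the 2. Subtracting the median change of the 1000 genes nearest in level, also added then, gave changes of -0.40 to 0.43. No paired analysis was possible because each condition has 1 library, and no replicate could be left out.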
